A study of Mus musculus with 6 samples.

Results

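A set of 32 genes of the cell division cycle was followed in liver RNA from mice given an inhibitor of the immunoproteasome or its vehicle. The genes were taken by symbol from the deposited matrix of 22851 genes, and all 32 were found. They comprise 11 DNA replication genes, 4 genes of the G1/S transition and 17 genes of mitosis and its control. The mice were male C57BL/6J animals, an inbred laboratory strain, and both groups were kept on a high-fat diet (HFD). The vehicle group is libraries HFD1, HFD2 and HFD4, called vehicle 1, 2 and 4 here. The treated group is HFD_ONX1, HFD_ONX3 and HFD_ONX4, called ONX-0914 1, 3 and 4, from mice injected under the skin for 6 weeks, every other day, with ONX-0914 (10 mg/kg). ONX-0914 inhibits PSMB8, a catalytic subunit of the immunoproteasome. The design text gives 2 biological replicates per group, yet each group holds 3 libraries, and nothing ties libraries to animals, so p-values measure only the spread between these libraries, which may be technical. No source used here gives the age of the animals.

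Dividing cells copy their DNA in S phase and separate it in mitosis. D-type cyclins start the sequence by phosphorylating RB proteins, which frees E2F factors to switch on cyclin E and the replication genes, among them the MCM helicase, the PCNA clamp and the enzymes that make deoxynucleotides. A later wave of genes, driven by FOXM1 and released from the DREAM repressor, encodes cyclin B, CDK1, the spindle kinases and the kinesins of mitosis. Most hepatocytes of an adult liver rest outside the cycle and re-enter it after injury or tissue loss, so these transcripts are low there. Several of the encoded proteins, cyclins first of all, are removed by the proteasome after ubiquitin is attached by APC/C or SCF ligases; RNA values carry no information on that step.

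Promoters of these genes carry known elements: the CCAAT box bound by NF-Y, the cell cycle genes homology region (CHR) of mitotic genes, and the E2F site of replication genes. RefSeq promoter sequences (GRCm38.p6) were matched for 25 of the 32 genes, all but Mcm4, Ccnd1, Ccne2, Ccna2, Aurkb, Kif20a and Foxm1. Searched on both strands of the 250 bases before the start were CCAAT, the CHR letters TTTGAA and TTTAAA, and the E2F letters TTTCCCGC, TTTGGCGC, TTTCGCGC and TTTGCCGC. A CCAAT box was found in 11 of 13 mitosis genes (84.6%) and 7 of 10 replication genes (70.0%), against 37.5% of all 27025 genes with a promoter. A CHR match was found in 9 of 13 mitosis genes (69.2%) and 3 of 10 replication genes, against 28.1% of all genes. An E2F match was found in 4 of 10 replication genes (40.0%) and 1 of 13 mitosis genes (7.69%), against 2.16%. A gene counts once if any of its windows holds the letters, and TTTAAA reads the same on both strands. The last 150 bases before the start are shown for 2 mitosis genes that fell in treated livers (Mki67, Top2a), 2 that did not pass the test (Ccnb2, Cdc20) and a replication gene that did not (Mcm6), with motif letters in capitals on either strand, read 5′ to 3′ along the gene:
Mki67: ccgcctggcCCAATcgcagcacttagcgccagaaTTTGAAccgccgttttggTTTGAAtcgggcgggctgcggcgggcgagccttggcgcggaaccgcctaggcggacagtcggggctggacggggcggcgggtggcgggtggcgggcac
Top2a: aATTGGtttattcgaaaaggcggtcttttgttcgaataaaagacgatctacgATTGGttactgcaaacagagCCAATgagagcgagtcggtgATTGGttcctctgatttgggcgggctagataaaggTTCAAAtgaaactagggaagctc
Ccnb2: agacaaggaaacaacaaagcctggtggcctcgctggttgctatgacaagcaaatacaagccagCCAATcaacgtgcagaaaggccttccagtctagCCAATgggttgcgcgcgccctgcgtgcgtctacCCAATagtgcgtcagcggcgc
Cdc20: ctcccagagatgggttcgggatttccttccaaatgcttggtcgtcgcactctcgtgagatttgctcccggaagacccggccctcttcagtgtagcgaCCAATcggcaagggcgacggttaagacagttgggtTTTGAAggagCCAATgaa
Mcm6: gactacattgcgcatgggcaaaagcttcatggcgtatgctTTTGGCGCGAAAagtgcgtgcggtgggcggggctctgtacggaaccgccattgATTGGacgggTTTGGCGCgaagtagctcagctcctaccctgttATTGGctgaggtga
All 5 windows lie on the minus strand: Mki67 at chr7:135716380-135716529, Top2a at chr11:99024190-99024339, Ccnb2 at chr9:70421555-70421704, Cdc20 at chr4:118437344-118437493 and Mcm6 at chr1:128359706-128359855. Top2a shows 4 CCAAT boxes and a CHR close to the start. Ccnb2 shows 3 CCAAT boxes and Cdc20 shows 2 with a CHR between them. CCAAT boxes thus stand before genes called lower as deposited and before genes that did not pass the test. Whether Mki67, Top2a and Cdc20 passed depended on the scaling, as given below. Mki67 and Top2a entered the test through their vehicle libraries alone. Whether the boxes bear on any change was not tested. In Mcm6 a pair of E2F matches on opposite strands overlap in the first capital stretch. A match describes the letters and does not show that a factor binds.

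Hepatocyte markers were abundant in every library, with Alb, the albumin gene, between 17654 and 47971 FPKM (fragments per kilobase of transcript, scaled to the library's depth). The FPKM values summed to between 993264 and 1247789 per library. The treated libraries lost long transcripts relative to short ones: the log2 difference from vehicle of the longest 25% minus the shortest 25% of tested genes was -0.93, -0.25 and -0.99 in ONX-0914 1, 3 and 4, and between -0.032 and 0.039 in the vehicle libraries. ONX-0914 3 thus stood apart from the other treated libraries. The median gene tested had a log2 fold change of -0.64 as deposited and of -0.012 after scaling by median ratio, which sets each library's typical ratio to the 6-library geometric mean to 1. In bulk tissue, fewer cells of a type and less RNA per cell cannot be told apart.

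As deposited, 12 of the 26 members tested fell in treated livers and none rose. All genes were tested with limma on log2(FPKM + 1) where they exceeded 1 FPKM in at least 3 libraries, with Benjamini-Hochberg adjustment over 10743 genes and a threshold of 0.05. Of all those genes 43.5% were called lower and 2.56% higher, so the members' count stands near the background. The filter takes no account of group, so a gene can pass it through the vehicle libraries alone. Of the 26, 5 were at or below 1 FPKM in every treated library, and 13 had all 3 vehicle but at most 2 treated libraries above 1. No share over all genes stands beside these counts. A second test on log2(FPKM + 0.1), with genes above 0.1 FPKM in at least 3 libraries, held all 32 members. It called 12 lower and none higher, beside 35.4% and 1.84% of its 13553 genes. In the first test, leaving out vehicle 1, 2 or 4 or ONX-0914 1 brought the count down to 5 or 6. Over all 10743 genes the count of lower calls went from 4673 to 2590, 2840, 2966 and 3197 in those fits. Ccna2, Ccnd1, E2f1 and Top2a stayed called whichever library was left out. In 15 of the 32 every treated library was below every vehicle library and in none was every one above, beside 50.1% and 4.31% of those genes.

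By role, 4 of 10 tested replication genes, 3 of 4 G1/S genes and 5 of 12 tested mitosis genes fell. Beside these counts, 43.5% of all genes tested were called lower. The median log2 fold changes by role were -0.56, -0.82 and -0.45. The median over the 26 members was -0.58, beside -0.64 for all genes. On log2(FPKM + 0.1), 4 of 11, 3 of 4 and 5 of 17 fell, beside 35.4% of all genes. The medians there were -0.67, -1.39 and -0.69, beside -0.82 for all genes. Scaled by median ratio, on log2(FPKM + 1), 2 members were lower (Ccna2, Ccnd1) and 3 higher (Ccne1, Cdc20, Mcm7), beside 14.2% and 13.8% of all genes tested. With each library's trend along transcript length removed, none was lower and 4 were higher (Ccne1, Cdc20, Mcm7, Tyms), beside 11.5% and 9.65%.

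**Figure D1:**
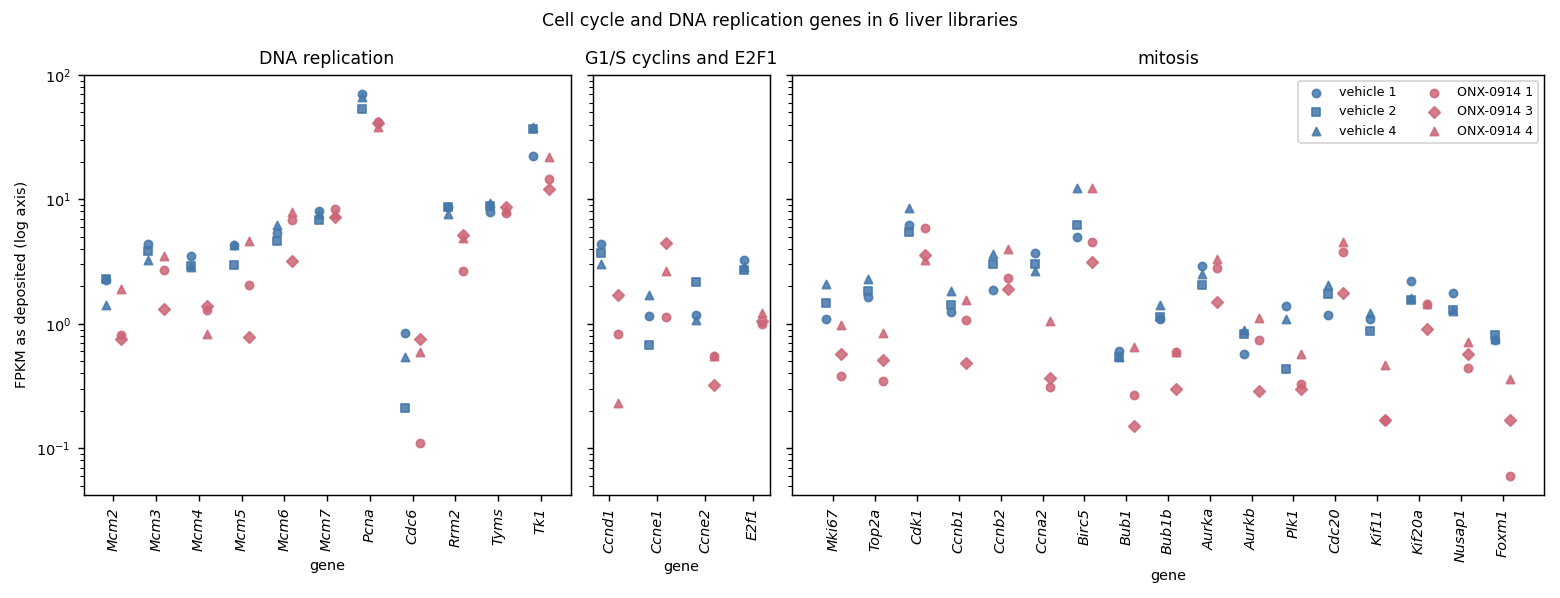
Deposited FPKM (log axis) of the 32 members in each library, by role; blue points are vehicle 1, 2 and 4, red points ONX-0914 1, 3 and 4, and the marker shape gives the library's number. The spread runs from 0.06 for Foxm1 in ONX-0914 1 to 70.87 for Pcna in vehicle 1, and red and blue points separate fully for 15 genes.

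Among the replication genes, Pcna, which encodes the sliding clamp of the DNA polymerases, was by far the highest. With vehicle 1, 2 and 4 its FPKM was 70.87, 53.76 and 66.95. With ONX-0914 1, 3 and 4 it was 42.00, 41.16 and 38.42. The 3 treated libraries lay close together and below each vehicle library. Pcna fell from 63.9 ± 8.96 to 40.5 ± 1.87 FPKM (SD, n = 3 each), a log2 fold change of -0.63 (SE 0.20, adjusted p = 0.0285 by limma). The call depended on the scaling: by median ratio the log2 fold change of Pcna was 0.15 (adjusted p = 0.632), and after removal of the length trend it was -0.31.

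Of the deoxynucleotide genes, Tk1 and Rrm2 were called lower as deposited and Tyms was not. No difference between them was tested. Tk1, thymidine kinase of the salvage pathway, was at 22.30, 36.79 and 37.88 FPKM with vehicle and 14.63, 12.13 and 22.11 in treated libraries, and fell (log2 fold change -0.95, SE 0.30, adjusted p = 0.0283 by limma). ONX-0914 4 came close to vehicle 1. Rrm2, the regulated subunit of ribonucleotide reductase, went from 8.70, 8.70 and 7.69 to 2.66, 5.18 and 4.88 FPKM and fell as well (-0.87, SE 0.28, adjusted p = 0.0316 by limma). Tyms, thymidylate synthase of the de novo pathway, showed overlapping groups, with 7.90, 8.90 and 9.37 FPKM with vehicle and 7.82, 8.77 and 8.21 with ONX-0914. Its log2 fold change was -0.068 (limma adjusted p = 0.822) as deposited and 0.65 (adjusted p = 0.0535) scaled by median ratio. Scaled, Tk1 and Rrm2 were at -0.18 and -0.19, neither of which passed.

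MCM2 to MCM7 form a helicase ring with an equal share of each subunit. Of their transcripts only that of Mcm4 was called as deposited, while Mcm2, Mcm3 and Mcm5 had log2 fold changes of -0.49, -0.50 and -0.62. Differences between these genes were not tested. Mcm4 was at 3.50, 2.91 and 2.88 FPKM with vehicle and 1.28, 1.39 and 0.83 in treated libraries. It was called lower as deposited (log2 fold change -0.93, SE 0.22, adjusted p = 0.0102 by limma). Mcm4 did not pass scaled by median ratio (-0.41, limma adjusted p = 0.134) or with the length trend removed (-0.09, adjusted p = 0.751). Mcm6 was at 5.35, 4.63 and 6.25 with vehicle and 6.78, 3.21 and 7.97 with ONX-0914, so the groups overlapped on both sides (log2 fold change 0.06, limma adjusted p = 0.887). Mcm7 was the steadiest of the 6, between 6.86 and 8.01 in vehicle and between 7.25 and 8.41 in treated libraries. It rose only relative to the other genes, by 0.75 scaled by median ratio (limma adjusted p = 0.0443).

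Mcm2, Mcm3 and Mcm5 were uneven among the treated livers. Mcm5 had 4.32, 2.99 and 4.28 FPKM with vehicle, and treatment gave 2.04, 0.78 and 4.65 in ONX-0914 1, 3 and 4. ONX-0914 3 lay far below and ONX-0914 4 above every vehicle library, and the log2 fold change of -0.62 had an SE of 0.39 (limma adjusted p = 0.212). Mcm3 was at 2.72, 1.31 and 3.54 and Mcm2 at 0.81, 0.75 and 1.92 in the same libraries, with vehicle ranges of 3.23 to 4.38 and 1.41 to 2.31. Set alone against vehicle, ONX-0914 3 gave log2 fold changes of -1.44 for Mcm5 and -1.05 for Mcm3 (limma adjusted p = 0.00762 and 0.0159). That fit takes its spread from the vehicle libraries only. Without ONX-0914 4, Mcm2 and Mcm5 were called lower (-0.73 and -1.05, limma adjusted p = 0.0487 and 0.04). Leaving out any other library called neither. Cdc6, which loads the ring onto origins, was low throughout at 0.84, 0.21 and 0.54 with vehicle and 0.11, 0.75 and 0.59 with ONX-0914.

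Among the G1/S genes, cyclin D1 and cyclin E1 had fold changes of opposite sign, of which that of cyclin D1 passed the test. Ccnd1, which encodes cyclin D1, was at 4.39, 3.68 and 3.01 FPKM with vehicle and 0.83, 1.72 and 0.23 in treated libraries, a fall of 3.98-fold in the means (log2 fold change -1.35, SE 0.31, adjusted p = 0.00828 by limma). No treated library reached the vehicle range. Scaled by median ratio Ccnd1 remained lower (-0.89, limma adjusted p = 0.0459), but with the length trend removed it did not pass (-0.50, adjusted p = 0.127). Ccne1, cyclin E1, was at 1.16, 0.68 and 1.70 with vehicle and 1.13, 4.45 and 2.67 with ONX-0914. As deposited the groups overlapped (log2 fold change 0.71, SE 0.35, adjusted p = 0.121 by limma), while scaled by median ratio Ccne1 was higher by 1.17 (adjusted p = 0.0296). ONX-0914 3, the treated library with the smallest difference between long and short transcripts, had the highest Ccne1. In that library alone against vehicle, Ccne1 was at 1.35. As deposited without ONX-0914 3, Ccne1 was at 0.39 and did not pass (limma adjusted p = 0.259). Without ONX-0914 1 it was at 1.06 and passed (adjusted p = 0.0336).

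Ccne2, the second cyclin E gene, went the other way, from 1.17, 2.15 and 1.08 to 0.55, 0.32 and 0.55 FPKM, and fell (log2 fold change -0.72, SE 0.22, adjusted p = 0.0234 by limma). E2f1, an activating E2F factor, was tight in both groups, at 3.23, 2.72 and 2.85 with vehicle and 0.99, 1.05 and 1.22 with ONX-0914. It fell 2.69-fold in the means (log2 fold change -0.91, SE 0.21, adjusted p = 0.00797 by limma). Scaled by median ratio, Ccne2 and E2f1 were at -0.34 and -0.40 and neither passed (adjusted p = 0.26 and 0.153).

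Of the mitosis genes the largest fall was that of Ccna2, cyclin A2, which acts in S phase and at mitotic entry. It was at 3.68, 3.01 and 2.64 FPKM with vehicle and 0.31, 0.37 and 1.05 with ONX-0914, 5.39-fold lower in the means (log2 fold change -1.40, SE 0.24, adjusted p = 0.0032 by limma). It stayed lower scaled by median ratio (-0.94, adjusted p = 0.0327), not with the length trend removed (-0.67, adjusted p = 0.104). On log2(FPKM + 0.1) scaled by median ratio, Ccna2 and Ccnd1 were at -1.66 and -1.47 and did not pass (limma adjusted p = 0.0514 and 0.0817).

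Top2a, the topoisomerase that untangles sister chromatids, fell from 1.65, 1.83 and 2.29 to 0.35, 0.51 and 0.84 FPKM (log2 fold change -0.91, SE 0.21, adjusted p = 0.00828 by limma). Mki67, the Ki-67 proliferation marker, was at 1.10, 1.47 and 2.08 with vehicle and 0.38, 0.57 and 0.98 with ONX-0914 (-0.63, SE 0.23, adjusted p = 0.0445 by limma). The gap between the groups was narrow for Mki67, at 0.98 against 1.10. Nusap1 and Bub1b, which act on spindle microtubules and in the spindle checkpoint, fell by 0.64 and 0.57 on the same scale (limma adjusted p = 0.0224 and 0.0299). On log2(FPKM + 0.1) Mki67 and Bub1b did not pass (adjusted p = 0.0717 and 0.0552). Scaled by median ratio, Top2a, Mki67, Nusap1 and Bub1b were at -0.49, -0.23, -0.25 and -0.20, and none passed. With the length trend removed they were at 0.021, 0.17, 0.19 and 0.27, and none passed. These genes exceeded 1 FPKM in vehicle libraries only.

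Foxm1 and Kif11 were too low for the first test and fell in the second. Foxm1, the transcription factor of the mitotic wave, was at 0.74, 0.81 and 0.76 FPKM with vehicle and 0.06, 0.17 and 0.36 with ONX-0914 (log2 fold change of FPKM + 0.1 of -1.68, SE 0.50, adjusted p = 0.0311 by limma). From the length of its exons and what a single read adds to a value, these are an estimated 51, 72 and 58 reads against 4, 10 and 22. Kif11, the kinesin that pushes spindle poles apart, was at 1.09, 0.88 and 1.23 with vehicle and 0.17, 0.17 and 0.47 with ONX-0914 (-1.74, SE 0.47, adjusted p = 0.0227 by limma). In both genes the treated values were low in all 3 libraries and highest in ONX-0914 4. Neither passed when scaled by median ratio (adjusted p = 0.168 for Foxm1 and 0.149 for Kif11).

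Other mitosis genes did not pass the test. Cdc20, which activates APC/C at anaphase, was at 1.17, 1.75 and 2.07 FPKM with vehicle and 3.80, 1.77 and 4.56 with ONX-0914. ONX-0914 1 and 4 lay above every vehicle library and ONX-0914 3 among them (log2 fold change 0.67, SE 0.31, adjusted p = 0.0971 by limma). Cdc20 passed scaled by median ratio (1.23, adjusted p = 0.0402). On log2(FPKM + 0.1) as deposited it passed without ONX-0914 3 (1.31, limma adjusted p = 0.0102), whereas ONX-0914 3 alone was at 0.12 (adjusted p = 0.85). Birc5, the survivin gene, was at 4.96, 6.28 and 12.34 with vehicle and 4.57, 3.12 and 12.40 with ONX-0914. Its highest vehicle and highest treated library were thus nearly equal, and each stood well above the rest of its group.

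Ccnb2, cyclin B2, ranged from 1.86 to 3.64 with vehicle and from 1.89 to 3.98 with ONX-0914 (log2 fold change -0.052, limma adjusted p = 0.894). Aurka, a spindle pole kinase, ranged from 2.05 to 2.91 and from 1.49 to 3.32. Aurkb, of the chromosomal passenger complex, ranged from 0.57 to 0.89 with vehicle, and ONX-0914 3 and 4 lay on either side of that range. Cdk1, the mitotic kinase, was at 6.20, 5.51 and 8.55 with vehicle and 5.86, 3.57 and 3.24 with ONX-0914 (-0.58, limma adjusted p = 0.126). Ccnb1, Kif20a, Bub1 and Plk1 were not called either, with log2 fold changes of FPKM + 0.1 of -0.61, -0.48, -0.68 and -1.01. ONX-0914 3 was the lowest treated library in 10 of the 17 mitosis genes and ONX-0914 4 the highest in 15, against 6 and 5 of the 11 replication genes.

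**Figure D2:**
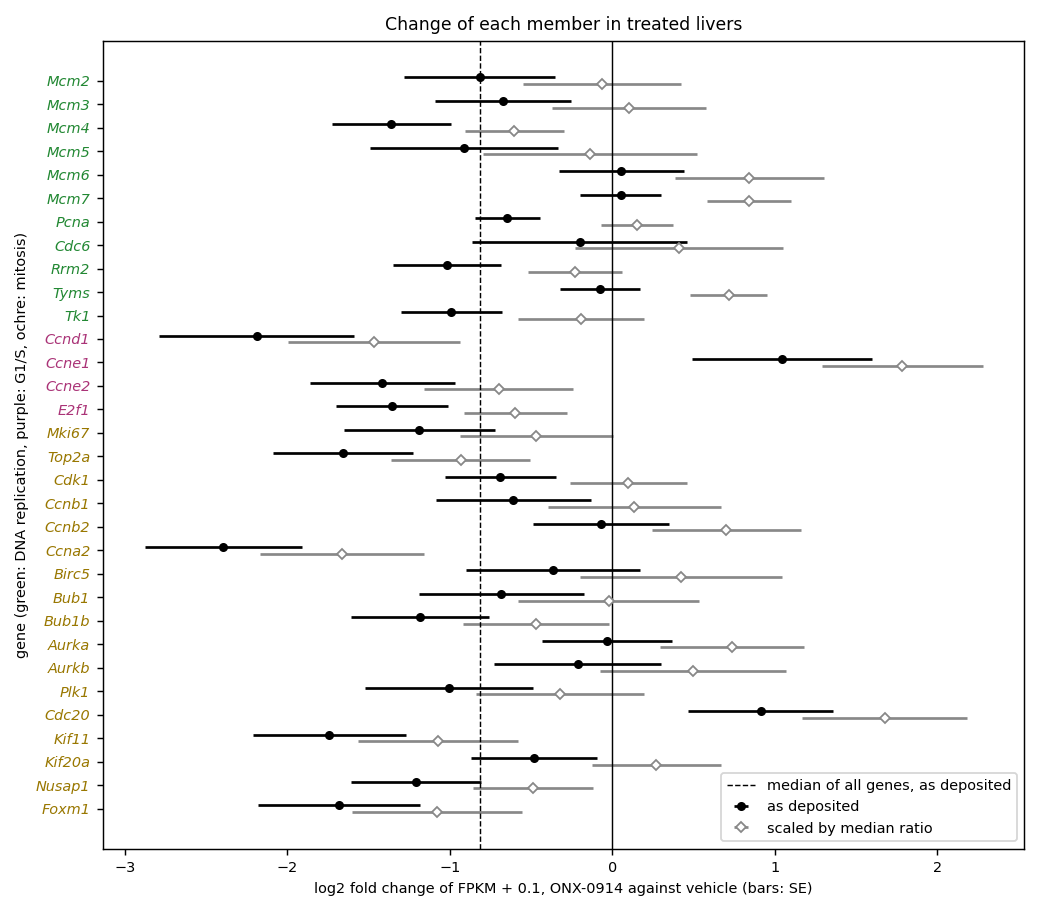
Log2 fold change of FPKM + 0.1 (ONX-0914 against vehicle, limma, bars are SE) of each member, as deposited (filled) and scaled by median ratio (open); the dashed line is the median of all 13553 genes as deposited. Ccna2 and Ccnd1 lie furthest below the dashed line at -2.39 and -2.19, and Ccne1 and Cdc20 furthest above it at 1.04 and 0.91.

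Set against each other, replication and mitosis genes did not separate the groups. The FPKM of the 11 replication genes summed to 138, 132 and 148 in vehicle 1, 2 and 4 and to 89.3, 82.7 and 101 in ONX-0914 1, 3 and 4. Every treated sum was below every vehicle sum, and Pcna and Tk1 together made up between 60.0% and 70.8% of it. The 17 mitosis genes summed to 34.3, 33.8 and 46.8 with vehicle and 25.5, 16.6 and 37.8 with ONX-0914, and here ONX-0914 4 reached into the vehicle range. The ratio of the mitosis to the replication sum, which a scale factor per library leaves unchanged, was 0.249, 0.256 and 0.316 with vehicle and 0.286, 0.201 and 0.374 with ONX-0914. The treated ratios spanned the vehicle ratios on both sides, with means of 0.287 ± 0.0865 and 0.274 ± 0.0368 (SD, n = 3 each). Without the highest pair of each group (Pcna and Tk1, Birc5 and Cdk1), the ratios were 0.511, 0.531 and 0.598 against 0.463, 0.338 and 0.551, again overlapping. Quantile normalization is not a single factor per library. It gave ratios of 0.207, 0.22 and 0.274 with vehicle and 0.347, 0.213 and 0.453 with ONX-0914, which overlapped too. The ratio is also not free of the length difference, as Pcna and Tk1 are the shortest members at 1518 and 1440 bases.

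By the median over members, the replication genes of ONX-0914 1, 3 and 4 differed from the vehicle mean by -0.87, -0.73 and -0.083 on log2(FPKM + 0.1), and the mitosis genes by -0.83, -1.26 and -0.55. The same median over all 13553 genes was -0.93, -0.48 and -1.02. ONX-0914 3 therefore lay below the median gene in both groups of members and ONX-0914 4 above it in both.

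Within each group, but not across the groups, the summed markers of neutrophils followed the order of the mitosis sum and the replication sum. The FPKM of 10 neutrophil markers summed to 375, 311 and 1900 in vehicle 1, 2 and 4 and to 2190, 188 and 4870 in ONX-0914 1, 3 and 4. The sum was highest in ONX-0914 4 and lowest in ONX-0914 3, as were the mitosis and replication sums among treated libraries. Vehicle 4 was the highest vehicle library in all of them. The order therefore does not set mitosis apart from replication. Across groups the order differed: ONX-0914 1 had a neutrophil sum of 2190 and a mitosis sum of 25.5, vehicle 1 had 375 and 34.3. Monocyte and macrophage markers had the same order among treated libraries, with sums of 299, 290 and 373 in ONX-0914 1, 3 and 4. Elane and Mpo, granule genes of dividing granulocyte precursors, were at 39.61 and 52.86 FPKM in ONX-0914 4 and no higher than 7.11 and 10.79 elsewhere. Camp was at 340.33 in ONX-0914 4 and 0.60 in ONX-0914 3, and Ly6g was at 8.63 and 0. None of the 10 neutrophil markers was called between the groups. Without ONX-0914 3, however, 6 were called higher and 1 lower, with a median log2 fold change of 1.85 against 0.69 with all libraries. With the replicate number as a block 7 were higher and 1 lower. Their part in the mitosis and replication values was not tested.

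Markers of other liver cells differed between the groups. All 12 endothelial markers were called lower, beside 43.5% of all genes, with sums of 199 to 212 with vehicle and 36.6 to 65.4 with ONX-0914. Of 11 tested Kupffer cell markers 7 were lower (sums 1160 to 1820 and 629 to 1080), and of 9 tested monocyte and macrophage markers 7 were lower (622 to 865 and 290 to 373). Of the stellate cell markers 6 of 11 were lower (366 to 438 and 101 to 227). After median ratio scaling, 10 endothelial, 3 Kupffer cell, 2 monocyte and macrophage and 4 stellate cell markers were lower, and 1 monocyte and macrophage marker was higher. Leaving out 1 library gave 12 endothelial markers lower each time. The counts were 4 to 7 for Kupffer cell, 4 to 7 for monocyte and macrophage and 5 to 9 for stellate cell markers. Of all 10743 genes, 2590 to 6514 were lower in these fits. The fewest Kupffer cell calls came without vehicle 1, the fewest monocyte and macrophage calls without vehicle 1 or vehicle 4, and the most stellate cell calls without ONX-0914 1. None of the 5 tested T and NK cell markers or the 5 tested B and plasma cell markers was called; scaled by median ratio 1 of each was higher. Of 7 tested erythroid precursor markers 1, the transferrin receptor gene Tfrc, was lower, with sums of 175 to 633 with vehicle and 312 to 441 with ONX-0914. Without vehicle 2, which had the sum of 633, 4 erythroid markers were called higher and 1 lower, and with the replicate block 4 were higher and 2 lower. Of 7 tested cholangiocyte markers 3 were lower and 1 higher, and of 12 hepatocyte markers 4 were lower and 2 higher. After median ratio scaling none of either list was lower, and 2 cholangiocyte and 4 hepatocyte markers were higher. Cd3e, a defining gene of T cells, did not exceed 0.59 FPKM. The part of these cell types in the falls of the members was not tested.

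**Figure D3:**
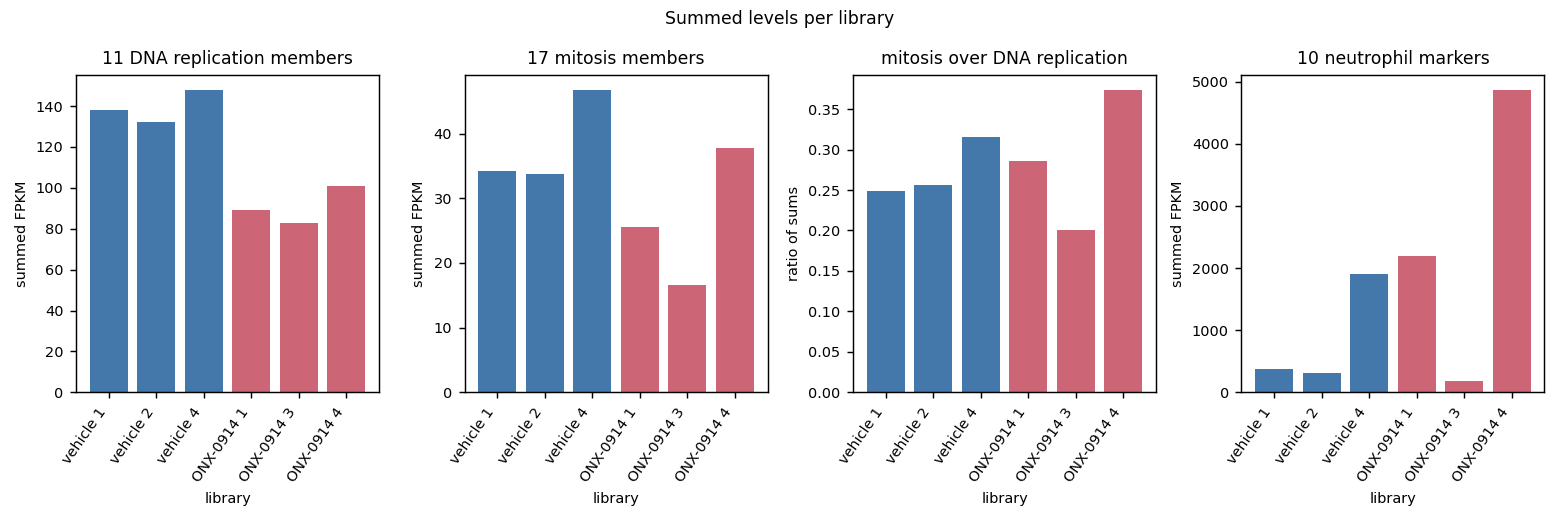
Summed FPKM per library of the replication members, the mitosis members and 10 neutrophil markers, and the ratio of the mitosis to the replication sum (bars start at 0; blue vehicle, red ONX-0914). The replication sums of treated libraries all lie below those of vehicle, while mitosis sums and ratios overlap and ONX-0914 4 is highest among treated libraries in all 4 panels.

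The change of a mitosis gene followed its transcript length. Across the 17 mitosis genes Spearman's rho between the longest protein-coding transcript and the log2 fold change of FPKM + 0.1 was -0.71, across the 11 replication genes 0.23, and across 13063 genes with a known length -0.42. These describe genes that share the same 6 libraries and are not independent replicates. The 7 mitosis genes under 3000 bases had a median log2 fold change of -0.21 and 1 of them, Ccna2, was called lower, beside 1704 of 6531 genes of that length. The 10 at or above it had a median of -1.19, with 4 called lower (Top2a, Kif11, Nusap1 and Foxm1), beside 3000 of 6532 genes. All genes under and over 3000 bases had medians of -0.48 and -1.16. The replication genes did not follow this order: Tk1 and Pcna, the shortest at 1440 and 1518 bases, fell, and Mcm6 with 4355 bases was at 0.06. With the length trend removed on the same scale, no member was lower, and Ccna2 and Ccnd1 were at -1.48 and -1.10 (limma adjusted p = 0.074 and 0.135). How far transcript length accounts for the remaining falls was not tested.

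**Figure D4:**
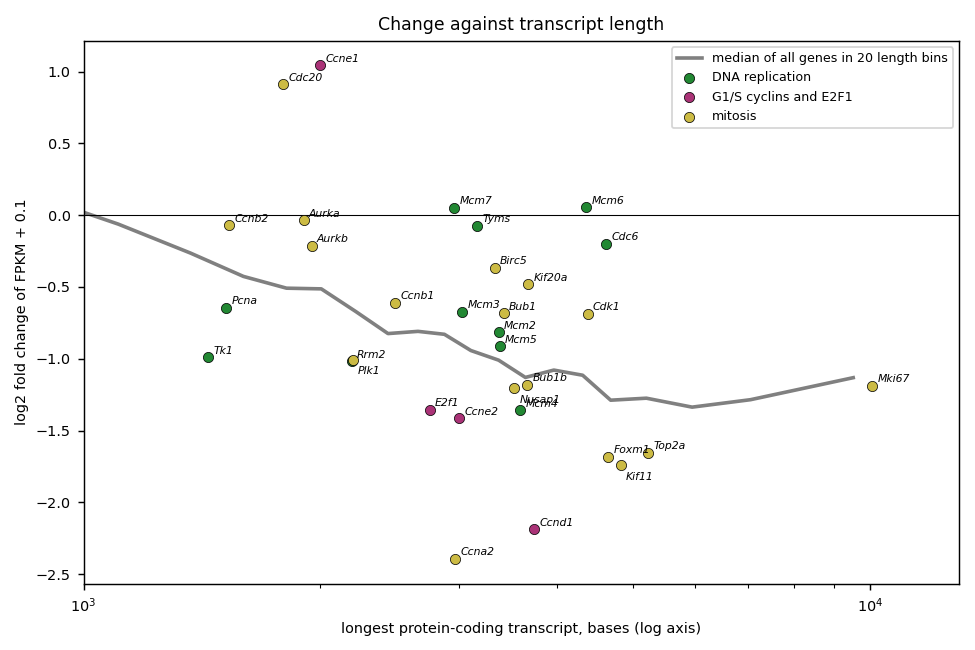
Log2 fold change of FPKM + 0.1 of each member against its longest protein-coding transcript (log axis), coloured by role, with the median of all genes in 20 length bins (grey line). Mitosis genes tend downward with length, from -0.071 for the shortest, Ccnb2, to -1.19 for the longest, Mki67, and Ccna2 and Ccnd1 lie furthest below the grey line.

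Ratios of members within a library are free of its scale factor, and 8 pairs were formed after the values were seen, so they are a description. Mcm6 was 1.53, 1.59 and 2.17 times Mcm4 with vehicle and 5.30, 2.31 and 9.60 times with ONX-0914. The Mcm6 transcript is the longer one, 4355 against 3589 bases, and Tyms is longer than Tk1. In the other 6 pairs the numerator is the shorter transcript, and treated libraries lost long transcripts relative to short ones, so these ratios are free of a library's scale factor but not of the length difference. Cdc20 was 0.318, 0.581 and 0.784 times Ccna2 with vehicle and 12.3, 4.78 and 4.34 times with ONX-0914. Ccne1 was 0.264, 0.185 and 0.565 times Ccnd1 and then 1.36, 2.59 and 11.6 times. Tyms was 0.354, 0.242 and 0.247 times Tk1 and then 0.535, 0.723 and 0.371 times, the closest approach of the 8. In each pair every treated ratio lay above every vehicle ratio, ONX-0914 3 included. No test is given for pairs chosen this way.

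**Figure D5:**
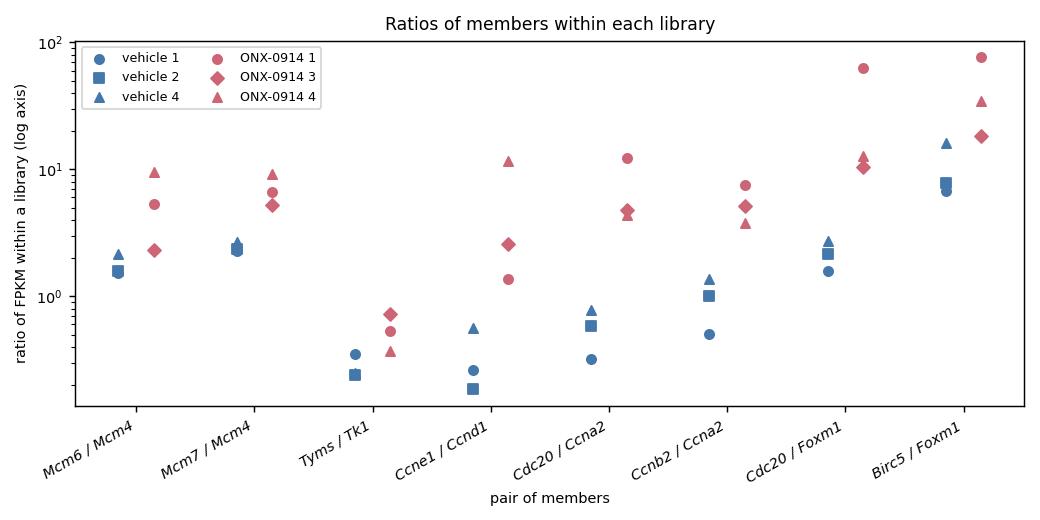
Ratio of FPKM between 2 members within each library (log axis) for 8 pairs chosen after their values were seen; blue points are vehicle, red points ONX-0914, and the marker shape gives the library's number. In each pair the red points lie above the blue ones, from the narrow gap of Tyms over Tk1 (0.354 against 0.371) to the wide gap of Cdc20 over Ccna2 (0.784 against 4.34).

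The rest of the machinery was taken from lists of the same processes. Of 47 other replication genes 39 were tested, 10 fell and 1 rose, beside 43.5% and 2.56% of all genes, with a median log2 fold change of -0.39 beside -0.64. With median ratio scaling 1 was lower and 2 higher. Leaving out 1 library gave from 2 lower (without vehicle 1) to 15 (without ONX-0914 3). Of all 10743 genes those fits called 2590 and 6514 lower. The largest falls without overlap of the groups were those of Orc5 (log2 fold change -1.44), an origin recognition subunit, Rpa1 (-1.30), which coats single-stranded DNA, the clamp loader gene Rfc1 (-1.29) and Orc6 (-1.01), each with limma adjusted p of at most 0.0103. Rnaseh2a, which removes RNA primers, rose in all 3 treated libraries, at 43.54, 28.57 and 36.04 FPKM against at most 24.85 in vehicle (log2 fold change 0.70, SE 0.23, adjusted p = 0.0351 by limma), and by 1.47 scaled by median ratio. It is named because it was the lone rise, and the list held no gene called higher when any 1 library other than ONX-0914 3 was left out.

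Of 56 other mitosis genes only 25 passed the filter. Of these 12 fell and none rose, beside 43.5% and 2.56% of all genes, with a median of -0.60 beside -0.64. Median ratio scaling left 1 lower, and leaving out 1 library gave from 3 lower (without vehicle 1) to 12 (without ONX-0914 3). Of all 10743 genes those fits called 2590 and 6514 lower. Spc25, of the kinetochore's NDC80 complex, went from 9.34, 8.24 and 8.02 to 2.37, 2.09 and 4.47 FPKM (log2 fold change -1.31, limma adjusted p = 0.00752). Ccnf, cyclin F, Numa1, a spindle pole protein, and Mad2l1, a checkpoint protein, fell as well, Ccnf by 1.24 and Numa1 by 1.07. On log2(FPKM + 0.1), where 55 were tested, 21 fell and none rose, beside 35.4% and 1.84% of all genes. The median was -1.07 beside -0.82 for all genes, and the 32 members' median was -0.75. Scaled by median ratio on that scale, 2 remained called (Cep55, -1.82, and Cdc25b, -2.12, named for that reason), and the median was -0.41 beside -0.089 for all genes.

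Of 24 tested genes of G1 control and the DREAM complex 12 fell and none rose, near the 43.5% of all genes called lower, with a median log2 fold change of -0.69 beside -0.64. Median ratio scaling left 2 lower, and removing the length trend left 1. The count was also 2 without vehicle 2, ONX-0914 1 or ONX-0914 4, was 4 without vehicle 1 or vehicle 4, and was 16 without ONX-0914 3. Of all 10743 genes, 6514 were lower without ONX-0914 3, and 2590 to 3197 when another library was left out. Rbl2, the pocket protein p130 of resting cells, went from 7.97, 8.24 and 7.83 to 0.76, 3.02 and 1.42 FPKM (log2 fold change -1.81, SE 0.32, adjusted p = 0.00354 by limma), and was lower scaled by median ratio too (-1.22, adjusted p = 0.0182). Rb1, the retinoblastoma gene, was at 2.28, 1.97 and 2.18 and then 0.37, 0.65 and 0.36 (-1.11, SE 0.19, adjusted p = 0.00306 by limma). E2f6, a repressor E2F, and Cdkn1b, the inhibitor p27, had log2 fold changes of -1.38 and -1.28. For Cdkn1b ONX-0914 3 was close to vehicle, at 10.50 FPKM against a vehicle minimum of 11.72, and 2.79 and 3.76 in ONX-0914 1 and 4.

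Of 23 tested APC/C and SCF ubiquitin ligase genes 8 fell and none rose, beside 43.5% of all genes called lower, with a median of -0.49. The count was 3 without vehicle 1 or vehicle 2, 4 or 5 without vehicle 4, ONX-0914 1 or ONX-0914 4, and 12 without ONX-0914 3. Over all 10743 genes the fit without ONX-0914 3 called 6514 lower and the others 2590 to 3197. Cdc27, a core APC/C subunit, went from 4.98, 5.27 and 6.20 to 0.80, 2.22 and 0.69 FPKM (log2 fold change -1.59, SE 0.30, adjusted p = 0.00395 by limma), and was lower by 1.07 scaled by median ratio. Cdc23, another subunit, the SCF receptor Btrc and the APC/C inhibitor Fbxo5 fell by 1.06, 0.96 and 0.94. Scaled by median ratio the list held 1 gene lower and 3 higher (Anapc1, Anapc13 and Rbx1, named as the only rises there).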

How the data were processed

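Per the submitters' processing notes, which give no roles or order, edgeR, featureCounts 1.6.0, HISAT2 2.0.1, cutadapt 1.11 and FastQC 0.11.5 were used with GRCm38 (mm10). No source used here names the annotation. Values are the authors' FPKM with 2 decimals, as deposited; the unit was read from the numbers. Genes were tested with limma 3.58.1 (R 4.3.3, variance trend, no block, Benjamini-Hochberg) on log2(FPKM + 1); the fit was tested on simulated data. Fold changes on this scale understate those of low genes. Median ratios used tested genes above 0 in every library. Lengths and positions are GENCODE M21. A value's worth of 1 read, from genes with 1 transcript, gave an estimated 12800000 to 19100000 counted reads per library and 4 to 1667 reads behind a member's value (median 84). Named are all 32 members and, per other list, up to 4 called genes without overlap and with the largest change. The members and lists were chosen with earlier results of these data known.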

Additional observations from a re-analysis of the deposited data

How the results depend on the processing

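The split of calls depended on scaling. As deposited 275 genes were higher and 4673 lower, against 1037 and 1232 after removal of the length trend, 1118 and 1334 after quantile normalization, 1074 and 1956 by upper quartile and 1481 and 1528 by median ratio. ONX-0914 3 alone gave 2992 lower. Leaving out 1 library gave 92 to 740 higher and 2590 to 6514 lower, both highest without ONX-0914 3. Of the members 12 were lower and 0 higher, against 2 and 3 by median ratio, 2 and 2 with the upper quartile, and 0 and 4 both after quantile normalization and after removal of the length trend. Leaving out 1 library gave 5 to 12 lower and 0 to 1 higher, with 5 lower without vehicle 1 or vehicle 2, 6 without vehicle 4 or ONX-0914 1; ONX-0914 3 alone gave 1 higher. The summed replication level differed by -0.62 (log2), and by 0.18 after median ratio, -0.0087 after upper quartile and 0.0025 after quantile scaling; the mitosis sum by -0.59, and by 0.22, 0.026 and 0.48 in the same order.

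Libraries share the numbers 1 and 4, which nothing says mark a pairing; the deviations of same-numbered libraries correlated at 0.001 and 0.13. With the replicate block 604 genes were higher, and 1 member (Cdc20) was higher and 10 lower; Ccnb2 and Aurka turned to 0.16 and 0.13.

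Members whose direction turned, with their log2 fold changes, follow. By median ratio these were Mcm3 0.12, Pcna 0.15, Tyms 0.65, Cdk1 0.089, Ccnb1 0.13, Ccnb2 0.54, Birc5 0.39, Aurka 0.57 and Kif20a 0.19. By upper quartile they were Tyms 0.48, Ccnb1 0.021, Ccnb2 0.40, Birc5 0.23, Aurka 0.43 and Kif20a 0.071. Quantile normalized they were Mcm2 0.31, Mcm3 0.34, Mcm5 0.21, Tyms 0.68, Ccne2 0.092, Mki67 0.15, Cdk1 0.22, Ccnb1 0.48, Ccnb2 0.76, Birc5 0.44, Bub1b 0.25, Aurka 0.81, Kif20a 0.51 and Nusap1 0.15. With the length trend removed they were Mcm2 0.31, Mcm3 0.25, Mcm5 0.18, Tyms 0.70, Ccne2 0.023, Mki67 0.17, Top2a 0.021, Cdk1 0.31, Ccnb1 0.33, Ccnb2 0.28, Birc5 0.50, Bub1b 0.27, Aurka 0.46, Kif20a 0.54 and Nusap1 0.19. In ONX-0914 3 alone Mcm6 was -0.60, Mcm7 -0.042 and Tyms 0.0098. Leaving out 1 library, Mcm6 ranged from -0.16 to 0.39, Mcm7 from -0.011 to 0.089, Ccnb2 from -0.28 to 0.11, Birc5 from -0.80 to 0.052 and Aurka from -0.18 to 0.22.

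Settings on log2(FPKM + 0.1) with another scaling or fewer libraries, and a filter on mean FPKM, were chosen after seeing the data. There the values were, by median ratio, Mcm3 0.10, Pcna 0.15, Cdc6 0.41, Tyms 0.72, Cdk1 0.098, Ccnb1 0.14, Ccnb2 0.70, Birc5 0.42, Aurka 0.74, Aurkb 0.50 and Kif20a 0.27, and with the length trend removed Mcm2 0.21, Mcm3 0.26, Mcm5 0.11, Cdc6 0.999, Tyms 0.90, Cdk1 0.48, Ccnb1 0.18, Ccnb2 0.31, Birc5 0.65, Bub1 0.35, Aurka 0.52, Aurkb 0.37 and Kif20a 0.595. In ONX-0914 3 alone they were Mcm6 -0.72, Mcm7 -0.047, Cdc6 0.57 and Tyms 0.011, and without ONX-0914 3 Ccnb2 0.15, Birc5 0.050, Aurka 0.29 and Aurkb 0.24. The cause was not tested. Settings that need counts were not run on these FPKM. Values under 20 estimated reads (20 of 192) carry large counting error.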
